A study of Mus musculus with 6 samples.

Results

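Ermn, Cbr2, Epas1, Lypd2 and Muc2 are 5 genes transcribed in sustentacular cells, the supporting cells of the olfactory epithelium, that lie outside the cytochrome P450 family. All probe sets that the array's platform table assigns to these symbols were taken, which gave 7 of the 45101 probe sets on the array. Ermn and Epas1 had 2 probe sets each and the others had 1. Olfactory epithelium of CD1 mice was dissociated and sorted by flow cytometry with a fluorescent antibody to ICAM1, a surface adhesion protein of horizontal basal cells, endothelium and leukocytes. From every one of 3 litters both populations, ICAM1-positive and ICAM1-negative, were collected and run on an array each, for 3 arrays of either sort. Litters 1, 2 and 3 were of postnatal day 21, 22 and 24, so litter and age cannot be told apart. No allele or treatment is stated for the mice, and each population stands for a litter and not for a single animal.

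Sustentacular cells span the epithelium from its apical surface to the basal lamina, ensheathe the olfactory neurons and metabolise inhaled chemicals with enzymes of drug metabolism. Their apical surface carries microvilli under a mucus layer. Horizontal basal cells are the reserve stem cells beneath them and can regenerate sustentacular cells after injury. Of the 5 genes, Cbr2 encodes a carbonyl reductase, Muc2 a gel-forming mucin, Ermn (ermin) a cytoskeletal protein related to the ezrin, radixin and moesin proteins, Epas1 the oxygen-regulated transcription factor HIF-2alpha, and Lypd2 a small cysteine-rich protein of the LY6 and uPAR family.

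The sorts differed as their titles state. Icam1 measured 6817 to 7247 on the ICAM1-positive arrays and 13 to 33.2 on the ICAM1-negative arrays (adjusted p = 0.000133). The ICAM1-negative values all lay below the array median, which puts the excess at 72.2-fold at least. The free-text sample descriptions name the opposite population. Values are linear intensities scaled by the authors to the same trimmed mean on every array, and the array medians lay between 87.9 and 102.8. All 11 genes on a fixed list of horizontal basal cell genes were higher in the ICAM1-positive sort, against 20.6% of all genes tested. The list holds Icam1 itself, whose excess was set by the sort. The list's summed intensity was 112405 to 118338 in the ICAM1-positive and 767.8 to 1343 in the ICAM1-negative sort. All 8 tested mature neuron genes were lower, against 20.8% of all genes tested. Differences are log2 values, ICAM1-positive minus ICAM1-negative, given with the standard error of the limma fit and a p-value adjusted by Benjamini-Hochberg over 38694 probe sets, with a threshold of 0.05.

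Ermn, Cbr2, Epas1 and Lypd2 were higher in ICAM1-positive cells, and Muc2 did not pass the threshold. All 7 probe sets passed the filter on low intensities, 6 were higher and 0 were lower. Over all probe sets tested, 34.9% passed by the same rule, 16.9% as higher and 18% as lower. With litter as a block, 37.2% of all probe sets passed (17.8% higher and 19.3% lower), and the same 6 of 7 did. The groups of these 6 did not overlap, which held for 23.6% of all probe sets in that direction and for 26.5% in the opposite one. In bulk sorts, fewer cells of a type and less RNA per cell cannot be told apart.

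**Figure D1:**
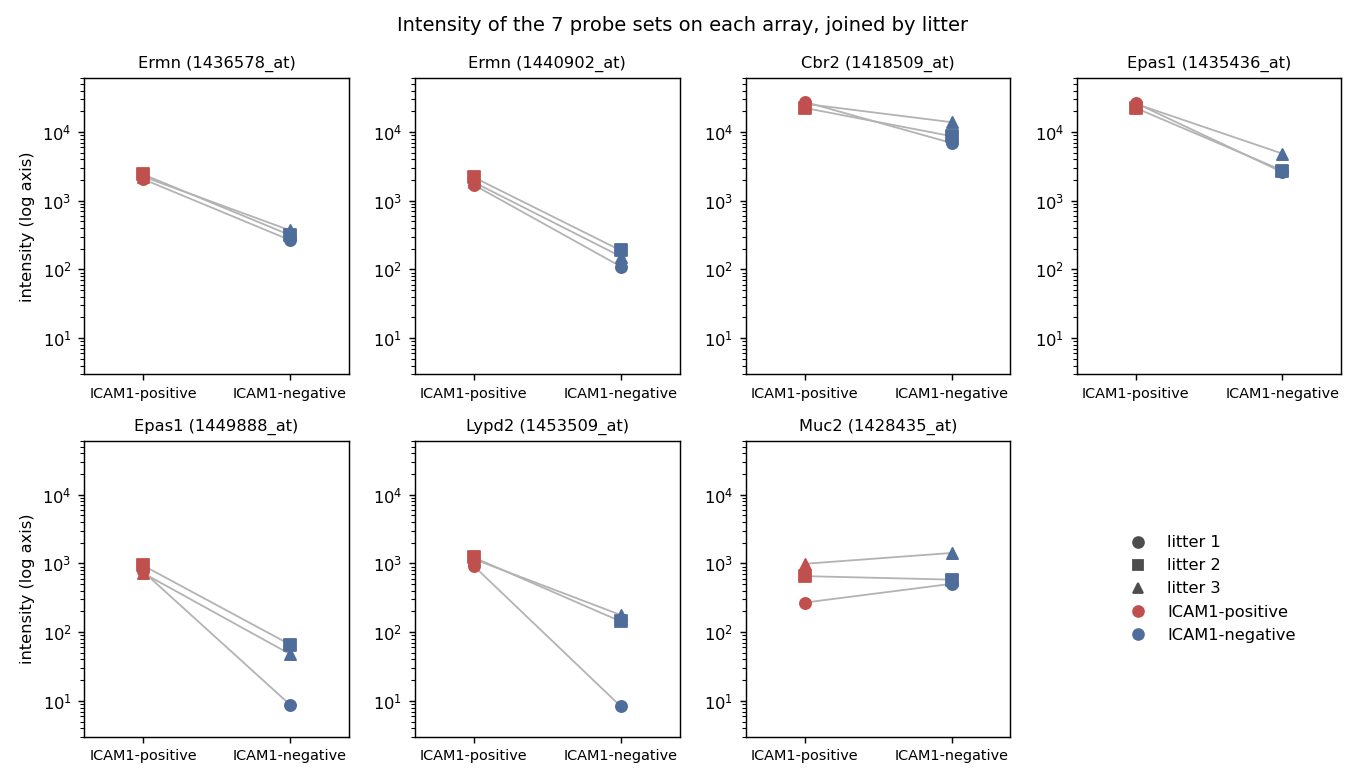
Intensity on a log axis of each of the 7 probe sets on the 3 ICAM1-positive and 3 ICAM1-negative arrays, with 1 marker shape per litter and a line joining the sorts of a litter. The lines slope down toward the ICAM1-negative side in every litter for all probe sets but that of Muc2, whose groups overlap.

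Upstream sequences are shown because Cbr2 and Ermn were higher together while Muc2, another sustentacular gene, did not pass the threshold. The RefSeq upstream set used here held 3 of the 5 genes, Ermn, Cbr2 and Muc2, on build GRCm38.p6. It lacked Epas1 and Lypd2. Each run holds the 250 bases before the annotated start, read 5′ to 3′ on the strand of the gene, with TATAAA and the longest run shared by Cbr2 and Muc2 in capitals. The stretches are chr2:58052865-58053114 on the minus strand for Ermn, chr11:120732022-120732271 on the minus strand for Cbr2 and chr7:141690090-141690339 on the plus strand for Muc2.
Ermn: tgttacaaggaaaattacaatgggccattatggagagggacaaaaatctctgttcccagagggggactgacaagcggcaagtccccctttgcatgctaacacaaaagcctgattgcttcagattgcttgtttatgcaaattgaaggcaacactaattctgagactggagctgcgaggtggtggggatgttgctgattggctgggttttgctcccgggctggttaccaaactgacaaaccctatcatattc
Cbr2: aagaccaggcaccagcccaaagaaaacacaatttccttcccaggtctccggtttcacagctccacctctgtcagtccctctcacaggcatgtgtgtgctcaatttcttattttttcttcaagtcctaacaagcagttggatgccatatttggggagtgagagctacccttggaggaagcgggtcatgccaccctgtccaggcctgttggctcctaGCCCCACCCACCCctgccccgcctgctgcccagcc
Muc2: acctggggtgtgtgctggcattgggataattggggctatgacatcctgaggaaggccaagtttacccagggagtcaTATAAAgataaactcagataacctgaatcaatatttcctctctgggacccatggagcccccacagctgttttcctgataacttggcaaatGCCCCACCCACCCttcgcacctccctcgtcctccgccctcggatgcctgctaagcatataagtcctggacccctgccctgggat

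Both strands were searched for the core of hypoxia response elements, ACGTG or GCGTG, which HIF-2alpha binds, for the palindrome CCCNNGGG bound by the olfactory Ebf factors, and for TATAAA. Neither hypoxia core nor the Ebf letters occurred in the 3 windows, while ACGTG occurred in 16.6%, GCGTG in 28.2% and CCCNNGGG in 11.7% of 27025 upstream windows of that length. TATAAA began 174 bases before the start of Muc2 and occurred in 13% of windows. The longest run shared by Cbr2 and Muc2 was GCCCCACCCACCC, of 13 bases, which began 35 bases before the start of Cbr2 and 84 bases before that of Muc2. That run was picked from these sequences and occurred on either strand in 13 of the 27025 windows (0.0481%). The longest run shared by Ermn and Cbr2, TTCCCAG, had 7 bases and occurred on the strand of the gene in 1293 of the 27025 windows. The GC content was 47.2% for Ermn, 55.6% for Cbr2 and 53.2% for Muc2, against a median of 52% over all windows.

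Ermn was higher in ICAM1-positive cells by both of its probe sets. Ermin is best known as an actin-binding protein of oligodendrocytes, the myelin-forming cells of the brain. Probe set 1436578_at measured 2059.4, 2418.8 and 2245.3 on the ICAM1-positive arrays of litters 1, 2 and 3, against 267.0, 315.6 and 370.0 on the ICAM1-negative arrays. The 3 ICAM1-positive values lay close together and far above every ICAM1-negative value. Their means were 2241 ± 179.7 and 317.5 ± 51.5 (SD, n = 3 each), a log2 difference of 2.83 ± 0.19 (adjusted p = 0.000292), and each litter showed a 6.07-fold to 7.71-fold excess.

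Probe set 1440902_at gave the same order of the sorts, at 1695.5, 2187.7 and 1854.9 in ICAM1-positive cells and 110.1, 188.6 and 154.0 in ICAM1-negative cells. The log2 difference was 3.69 ± 0.25 (adjusted p = 0.000294), and litters ranged from 11.6-fold to 15.4-fold. The interval of this difference, 3.07 to 4.31, and that of the other probe set, 2.35 to 3.31, overlap in part. Whether the size of the Ermn excess differs between the probe sets was not tested. Among 8 tested oligodendrocyte genes, 2 were higher, 2 were lower (0 without litter 1 or 3) and 4 (Mobp, Mag, Opalin and Gjc3) lay below the array median on all 6 arrays. The shares over all genes were 20.6% higher and 20.8% lower. The 2 oligodendrocyte genes that were higher were Cnp, a myelin-associated phosphodiesterase gene (2.82 ± 0.17, adjusted p = 0.000204), and Cldn11, a tight junction gene named after its values were seen, by at least 4.85-fold. The 2 that were lower were Mbp, which encodes myelin basic protein (-1.45 ± 0.31, adjusted p = 0.0154), and Ugt8a, a galactolipid synthesis gene also named after its values were seen (-1.05 ± 0.32, adjusted p = 0.0495). The call on Mbp ended without litter 1 (adjusted p = 0.107) or 3 (0.0863) or their ICAM1-negative arrays (0.0543 and 0.0514), and that on Ugt8a under 12 alternatives, the block among them (0.0623). Summed over the 8 genes, intensity was 6346 to 6867 in ICAM1-positive and 1820 to 2430 in ICAM1-negative cells. Cnp carried that excess, since the other 7 genes summed to 1050 to 1173 in ICAM1-positive and 1045 to 1569 in ICAM1-negative cells, and the part of such cells in the Ermn result was not tested.

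Epas1 was also higher by both probe sets. HIF-2alpha accumulates when oxygen is low, pairs with ARNT and activates target genes, and its gene is well known in endothelium. Probe set 1435436_at measured 26406, 22359 and 25743 on the ICAM1-positive arrays of litters 1, 2 and 3, against 2593.0, 2743.2 and 4831.0 on the ICAM1-negative arrays. The ICAM1-negative array of litter 3 stood above the other two, yet far under every ICAM1-positive array. Means were 24836 ± 2171 and 3389 ± 1251 (SD, n = 3 each), with a log2 difference of 2.93 ± 0.29 (adjusted p = 0.000780) and 5.33-fold to 10.2-fold within litters.

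Probe set 1449888_at of Epas1 measured 764.2, 933.3 and 724.5 in ICAM1-positive cells, against 8.8, 66.0 and 47.9 in ICAM1-negative cells. All 3 ICAM1-negative values lay below the array median, where the files give no detection call, so the fitted log2 difference of 4.73 ± 0.76 (adjusted p = 0.00500) has no exact fold. With the ICAM1-negative values raised to the median of their array, the excess was at least 8.31-fold, an estimated minimum without an error.

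Endothelial and macrophage transcripts were read beside Epas1, since both cell types transcribe it. Of 12 tested endothelial genes 1 was higher, Ramp2, at a minimum of 1.99-fold (2 without the ICAM1-positive array of litter 2). Of the 12, 8 lay below the array median on all 6 arrays, among them the defining junction genes Cdh5 and Cldn5. Their summed intensity was 765.8 to 897.2 in ICAM1-positive and 631.2 to 727.0 in ICAM1-negative cells, and without Ramp2 it was 611.0 to 703.9 in ICAM1-positive and 588.7 to 681.4 in ICAM1-negative cells. Among all genes tested, 20.6% were higher in ICAM1-positive cells and 20.8% lower. Macrophage genes were mostly higher. Of 14 tested, 13 were higher and 0 lower (14 and 0 at an unadjusted limma p under 0.05), with a summed intensity of 22443 to 28854 in ICAM1-positive against 1744 to 2197 in ICAM1-negative cells, and none lay below the array median on all 6 arrays. Ctss, a lysosomal protease gene, differed by 4.65 ± 0.20 while Cd14, which encodes a receptor for bacterial endotoxin, differed by 3.32 ± 0.18. The part of macrophages in the results on the 5 genes was not tested.

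Cbr2 differed less than Ermn and Epas1 on the log2 scale, a contrast between members that was not itself tested. Its product is an NADPH-dependent carbonyl reductase, described in mouse lung, that reduces aldehydes and ketones. It measured 27391, 22351 and 25671 on the ICAM1-positive arrays of litters 1, 2 and 3, against 6893.6, 8664.6 and 13852 on the ICAM1-negative arrays. Both sorts stood far above the array medians, and the ICAM1-negative array of litter 3 was the highest of its group. Means were 25138 ± 2562 and 9803 ± 3616 (SD, n = 3 each), so the ICAM1-negative mean was 39.0% of the ICAM1-positive mean.

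The log2 difference of Cbr2 was 1.42 ± 0.29 (95% interval 0.69 to 2.14, adjusted p = 0.0132), with 3.97-fold, 2.58-fold and 1.85-fold in litters 1, 2 and 3. Without litter 1 the adjusted p was 0.106 and without litter 2 it was 0.0870, with log2 differences of 1.13 and 1.44. Leaving out a litter also lowered the number of probe sets called over the whole array, to 3764 higher and 3678 lower without litter 1, against 6528 and 6984 with all litters.

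Lypd2 was higher in every litter, with an uncertain size. It measured 914.9, 1218.6 and 1153.5 on the ICAM1-positive arrays of litters 1, 2 and 3, against 8.3, 142.8 and 177.3 on the ICAM1-negative arrays. The ICAM1-negative array of litter 1 alone lay below its array median, and it sets most of the spread. The log2 difference was 4.19 ± 1.18 (95% interval 1.29 to 7.10, adjusted p = 0.0384), and the litters gave 110.2-fold, 8.53-fold and 6.51-fold.

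Without the ICAM1-negative array of litter 1 the log2 difference of Lypd2 was 2.77 (adjusted p = 0.00243), and 2.98 once every intensity under its array median had been set to it (adjusted p = 1.9e-05). The call ended without litter 2 (adjusted p = 0.127) or litter 3 (0.101), without an ICAM1-positive array (0.0851 to 0.0961) and without the ICAM1-negative array of litter 2 (0.0507). In each of these the array at 8.3 stayed in the fit.

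Muc2 did not pass the threshold. MUC2 forms the mucus gel of the intestine, and its transcript is a marker of sustentacular cells in the mouse nose. It measured 268.8, 652.2 and 985.7 on the ICAM1-positive arrays of litters 1, 2 and 3, against 504.3, 580.3 and 1417.5 on the ICAM1-negative arrays. The groups overlapped, both sorts of litter 3 were the highest of their group and both sorts of litter 1 the lowest. Means were 635.6 ± 359 and 834.0 ± 507 (SD, n = 3 each).

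The log2 difference of Muc2 was -0.42 ± 0.61 (adjusted p = 0.643), with a 95% interval of -1.92 to 1.08, which holds a difference of more than 2-fold in either direction. With litter as a block the interval was -1.21 to 0.37 (adjusted p = 0.297). Within litters the log2 difference was -0.91, 0.17 and -0.52, so the direction was not shared by all 3. The sign turned without the ICAM1-positive array of litter 1 (0.10) or the ICAM1-negative array of litter 3 (0.04).

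**Figure D2:**
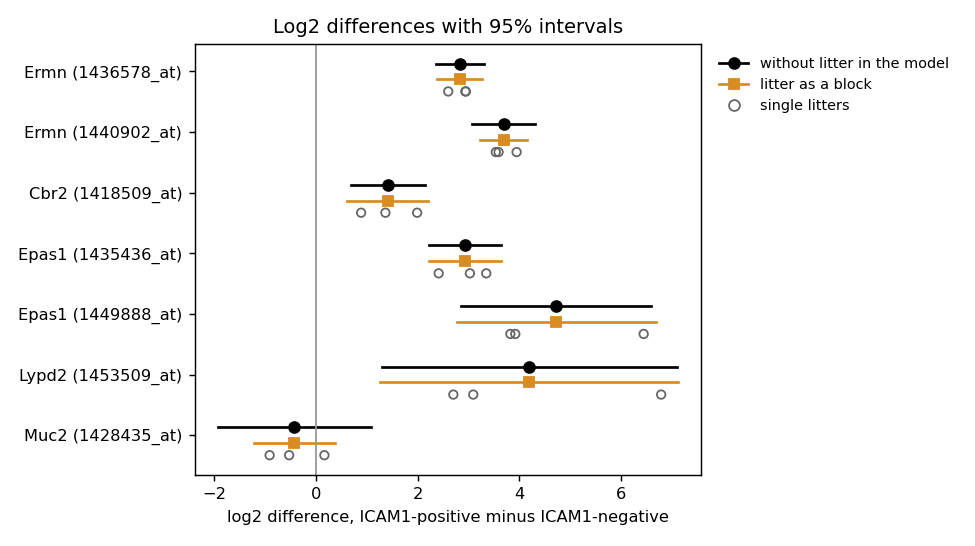
Log2 difference, ICAM1-positive minus ICAM1-negative, of each probe set with its 95% interval in the fit without litter (black) and with litter as a block (orange), and the 3 single litters (open circles). The intervals of the 6 probe sets of Ermn, Cbr2, Epas1 and Lypd2 lie above 0 in both fits, and those of Muc2 include 0.

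With 1 probe set per gene, other sustentacular genes were either higher in ICAM1-positive cells or did not pass. Of 25 tested genes on a fixed list of sustentacular genes outside the P450 family, 16 were higher and 0 lower (16 and 1 at an unadjusted limma p under 0.05), with a median log2 difference of 2.05. Over all 16399 genes tested, 41.4% passed, 20.6% as higher and 20.8% as lower, and the median was -0.06. With the probe sets of each gene averaged, 1 gene of the list was lower. The list's highest were Car12, a membrane carbonic anhydrase gene (7.19 ± 0.33, adjusted p = 0.000153), the glutathione transferase gene Gsto1 (5.49 ± 0.30, adjusted p = 0.000176) and the anion transporter gene Slc26a7 (5.15 ± 0.29, adjusted p = 0.000178). Several of the 16, among them Hes1, Sox2 and Notch2, are also transcribed in basal cells. The lipid-binding gene Sec14l3 and the sulfotransferase gene Sult1c1 did not pass, at -0.28 ± 0.41 (adjusted p = 0.645) and -0.84 ± 0.54 (adjusted p = 0.289).

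Among 10 tested P450 genes of the olfactory epithelium, 3 (30%) were higher and 0 lower (3 and 1 at an unadjusted limma p under 0.05), with a median of -0.20. The shares over all genes were 20.6% higher and 20.8% lower. The P450 genes that were higher were Cyp39a1, an oxysterol hydroxylase gene (2.51 ± 0.16, adjusted p = 0.000244), Cyp4b1 (1.84 ± 0.25, adjusted p = 0.00266) and Cyp2f2 (1.60 ± 0.32, adjusted p = 0.0120), the last pair encoding enzymes that activate inhaled toxicants. Cyp2f2 lost its call without litter 1 (adjusted p = 0.0988) or litter 2 (0.0916). With probe sets averaged, or without the ICAM1-negative array of litter 3, 1 gene of the P450 list was lower.

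Array by array, Cyp2g1, the P450 regarded as specific to olfactory mucosa, measured 5055.4, 9091.8 and 14356 in ICAM1-positive cells of litters 1, 2 and 3 and 9382.3, 8393.8 and 15350 in ICAM1-negative cells. Sec14l3 measured 4866.6, 10813 and 11273 in ICAM1-positive cells and 7549.2, 10274 and 13724 in ICAM1-negative cells. Cyp1a2 measured 289.5, 670.8 and 796.5 in ICAM1-positive cells and 579.5, 810.7 and 1386.6 in ICAM1-negative cells. In all 3 genes, as in Muc2, the ICAM1-positive array of litter 1 was the lowest of the 6 and the ICAM1-negative array of litter 3 the highest, and none passed the threshold.

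**Figure D3:**
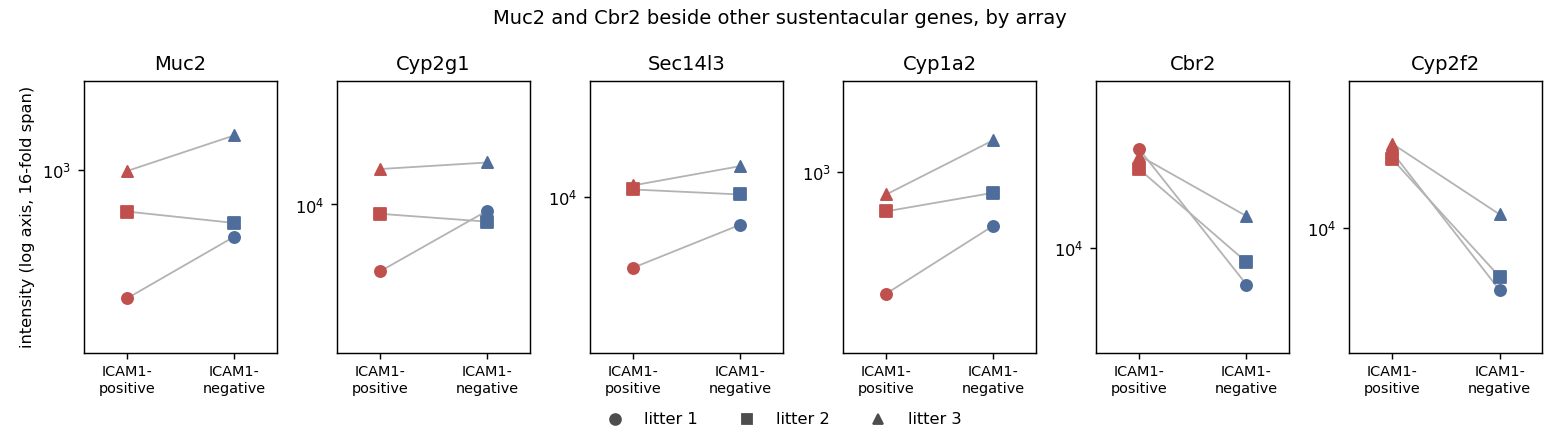
Intensity of Muc2, Cyp2g1, Sec14l3, Cyp1a2, Cbr2 and Cyp2f2 on the 3 ICAM1-positive and 3 ICAM1-negative arrays, on log axes that each span 16-fold, with lines joining the sorts of a litter. The groups overlap for the first 4 genes and do not overlap for Cbr2 and Cyp2f2.

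The genes closest to each member were found by the root-mean-square difference between log2 profiles over the 6 arrays, each profile centred on its mean, among 16399 genes. Cyp2f2 was closest to Cbr2 (0.13 log2 units), with 21674, 20237 and 23690 in ICAM1-positive and 5326.5, 6100.5 and 11529 in ICAM1-negative cells, ahead of Tmem97 and Sema4b (0.15 each). For Ermn they were Mettl7a1 (0.08), Spred1 (0.09) and Kif1c (0.09) by probe set 1436578_at, and Ltbp3 (0.10), Srgap3 (0.12) and Foxn3 (0.13) by probe set 1440902_at. For Epas1 they were Fhdc1 (0.13), Mettl7a1 (0.16) and Arhgef16 (0.16) by probe set 1435436_at, and Lmcd1 (0.25), Eva1a (0.27) and Ppara (0.31) by probe set 1449888_at. Lypd2 was followed by Lmcd1 (0.44), Ror2 (0.52) and Amz1 (0.56), all below the array median on the ICAM1-negative arrays. Eva1a, Ppara and Tmem97 lay below it there too. On the ICAM1-negative array of litter 1, Lmcd1, Eva1a, Ppara, Ror2 and Amz1 measured 3.6, 7.1, 4.3, 1.9 and 3.6. Lypd2 stood at 8.3 on that array and Epas1 probe set 1449888_at at 8.8. AU021092 (0.17), Fcamr (0.21) and Slc39a2 (0.23) were closest to Muc2, with Fcamr below the median on every array. Arrays that share a sort make many profiles alike, so these distances describe the 6 arrays and nothing more.

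Among the relatives of ermin, Ezr was higher in ICAM1-positive cells under all 17 alternatives, and Rdx and Msn were higher with calls that depended on the litters kept. ERM proteins link actin filaments to the cell membrane and shape microvilli. Of 12 tested genes of ERM proteins and their partners, 6 (50%) were higher and 1 lower, with a median of 0.59. The shares over all genes were 20.6% higher and 20.8% lower. Ezr (ezrin) measured 6654.6, 8646.4 and 6680.2 in ICAM1-positive and 1401.0, 1729.1 and 1309.4 in ICAM1-negative cells, a log2 difference of 2.31 ± 0.21 (adjusted p = 0.000594). Rdx (radixin) differed by 1.26 ± 0.21 (adjusted p = 0.00569) and Msn (moesin) by 0.70 ± 0.20 (adjusted p = 0.0378). The call on Rdx ended without litter 3 (adjusted p = 0.0656), and that on Msn without filtering (0.0541), without any 1 litter (0.0629 to 0.202) and without any of 5 single arrays (0.0814 to 0.121). Both were named after their values were seen. Cd44, a hyaluronan receptor gene whose product binds ERM proteins, differed by 1.63 ± 0.19 (adjusted p = 0.00146). The scaffold gene Slc9a3r1 differed by 1.29 ± 0.20 (adjusted p = 0.00441, and 0.0501 without litter 3). Podxl, which encodes a sialomucin anchored through these scaffolds, was 4.01-fold lower (adjusted p = 0.00111). Prom1 and Sdc2 did not pass, at 0.48 ± 0.18 (adjusted p = 0.0892) and -0.61 ± 0.19 (adjusted p = 0.0517). With a stricter filter, low intensities raised or an intensity trend both passed (adjusted p = 0.0209 to 0.0394 for Prom1 and 0.0106 to 0.0198 for Sdc2), as did Sdc2 with 16 added before log2 (0.0389). Without litter 3 the number of genes higher was 2, and 8 alternatives gave 2 or 3 genes lower.

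Subunits and regulators of hypoxia-inducible factors were read beside Epas1. Of 16 tested, 3 (18.8%) were higher and 1 lower, with a median of -0.03, and 25% were called against 41.4% of all genes. Egln3, a prolyl hydroxylase gene that is both a regulator and a target, measured 2070.1, 1945.2 and 2288.7 in ICAM1-positive and 130, 149.6 and 185.0 in ICAM1-negative cells (3.77 ± 0.20, adjusted p = 0.000176). Hif1a differed by 1.15 ± 0.17 (adjusted p = 0.00338, and 0.0514 without litter 1 or 3). Arnt, the partner gene, differed by 0.64 ± 0.18 (adjusted p = 0.0423), but its call ended without filtering (0.0610), without any 1 litter (0.0770 to 0.226) and without any of 5 single arrays (0.0863 to 0.126). The related Arnt2 was lower by -1.88 ± 0.27 (adjusted p = 0.00315). Eloc and Egln2 did not pass (-0.29 ± 0.20 and -0.04 ± 0.18). Genes higher in this list numbered 1 without litter 1 or 3, and 5 with low intensities raised or with an intensity trend. With the probe sets of each gene averaged, 0 were lower, so the call on Arnt2 ended. Genes lower numbered 2 with a stricter filter, low intensities raised or an intensity trend.

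Of 19 tested target genes 12 (63.2%) were higher and 3 lower, against 20.6% and 20.8% of all genes, with a median of 1.11. Adm, which encodes the vasodilator peptide adrenomedullin, differed by 4.24 ± 0.21 (adjusted p = 0.000162) and the growth factor gene Vegfa by 3.02 ± 0.18 (adjusted p = 0.000197). The 3 that were lower were Ankrd37 (-2.41 ± 0.26, adjusted p = 0.00105), the mitophagy gene Bnip3 (-0.99 ± 0.21, adjusted p = 0.0152) and the cyclin gene Ccnd1 (-0.88 ± 0.18, adjusted p = 0.0116). The call on Bnip3 ended without litter 1 (adjusted p = 0.0912) and litter 3 (0.115) and without the ICAM1-negative array of litter 1 (0.0523) or 3 (0.0504), and Ccnd1 without litter 1 (0.125) or 3 (0.109). Hmox1 did not pass with all arrays (1.11 ± 0.62) but did without litter 2 (1.42, adjusted p = 0.0425) or its ICAM1-positive array (1.74, adjusted p = 0.0320). Kdr lay below the array median on all 6 arrays. Without litter 1 or litter 3, 6 were higher and 1 lower.

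Mucins and genes of mucus-secreting cells were read beside Muc2. Of 18 tested, 5 (27.8%) were higher and 2 lower, with a median of 0.39. Over all genes, 20.6% were higher and 20.8% lower, with a median of -0.06. With both directions together, the 38.9% called is near the 41.4% of all genes. The chloride channel regulator gene Clca2 was at least 2.26-fold higher (adjusted p = 0.00723, and 0.0702 without litter 2), and the trefoil peptide gene Tff2 at least 1.5-fold (adjusted p = 0.0173, and 0.0742 with low intensities raised). Tff2 also lost its call without litter 2 (adjusted p = 0.111) or 3 (0.0617) or the ICAM1-positive array of either (0.0538 and 0.0581). Spdef, a transcription factor gene of goblet cells, passed (adjusted p = 0.00377) with all of its values below the array medians, and its call ended with low intensities raised (adjusted p = 0.996) or without litter 1 (0.0585).

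Galnt3, which starts O-glycan chains on mucins, and the membrane mucin gene Muc13 were lower, by -2.16 ± 0.28 (adjusted p = 0.00214) and -2.01 ± 0.31 (adjusted p = 0.00407). Muc13 measured 73.5, 124.1 and 156.5 in ICAM1-positive and 442.1, 435.2 and 480.3 in ICAM1-negative cells. Tff1 and the membrane mucin gene Muc16 did not pass, at 0.09 ± 0.22 and 0.46 ± 0.28. Without litter 2 or litter 3 the number of genes higher was 3.

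Carbonyl-reducing enzymes related to Cbr2 were called about as often as all genes with both directions together, 41.2% against 41.4%. Of 17 tested, 6 (35.3%) were higher and 1 lower, with a median of 0.45. Over all genes, 20.6% were higher and 20.8% lower, with a median of -0.06. Cbr3 measured 1199.8, 1233.7 and 1053.6 in ICAM1-positive and 97.9, 71.7 and 84.7 in ICAM1-negative cells, at least a 12-fold excess (adjusted p = 0.000164). Cbr1 did not pass, at 1512 ± 69.7 in ICAM1-positive and 2070 ± 244 in ICAM1-negative cells (-0.45 ± 0.17, adjusted p = 0.0991), and it passed as lower with a stricter filter, low intensities raised or an intensity trend (0.0246 to 0.0448). It was chosen after its values were seen, as the best known relative. The aldo-keto reductase gene Akr1c13 was at least 6.70-fold higher (adjusted p = 0.00171) and the cortisone reductase gene Hsd11b1 at least 1.94-fold (adjusted p = 0.00190). Dhrs7 was lower by -0.82 ± 0.21 (adjusted p = 0.0291), and its call ended without any 1 litter (0.0692 to 0.193), without any of 4 single arrays (0.0710 to 0.0909) and with array medians subtracted (0.0624). Akr1a1 and Hsd17b12 did not pass, at 0.45 ± 0.17 (adjusted p = 0.0887, and 0.00637 to 0.0384 under the same 3 alternatives) and 0.19 ± 0.20 (adjusted p = 0.526).

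Relatives of Lypd2 in the LY6 and uPAR family were mostly dim. These small proteins share a 3-fingered cysteine-rich fold, and many are held on the membrane by a lipid anchor. Of 17 tested, 10 (58.8%) were higher and 2 lower, against 20.6% and 20.8% of all genes, with a median of 0.95. Ly6e, a surface protein gene induced by interferon, was higher at 1529 ± 299 in ICAM1-positive and 189.0 ± 25.8 in ICAM1-negative cells (SD, n = 3 each, 3.01 ± 0.22, adjusted p = 0.000334). Lypd3 and Slurp1 passed (adjusted p = 0.00221 and 0.00251) with every ICAM1-negative value below the array median, at minimums of 1.16-fold and 1.31-fold, and with low intensities raised the calls ended (adjusted p = 0.393 and 0.207).

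Lypd1 was at least 2.89-fold lower (adjusted p = 0.00156). Ly6h was lower by -1.40 ± 0.39 (adjusted p = 0.0381), and its call ended without any 1 litter (0.0651 to 0.231), without any of 4 single arrays (0.0991 to 0.108) and without filtering (0.0506). Ly6g6c and Gpihbp1 did not pass, at 0.21 ± 0.19 and -0.01 ± 0.24. Without litter 1 the number of genes higher was 6.

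**Figure D4:**
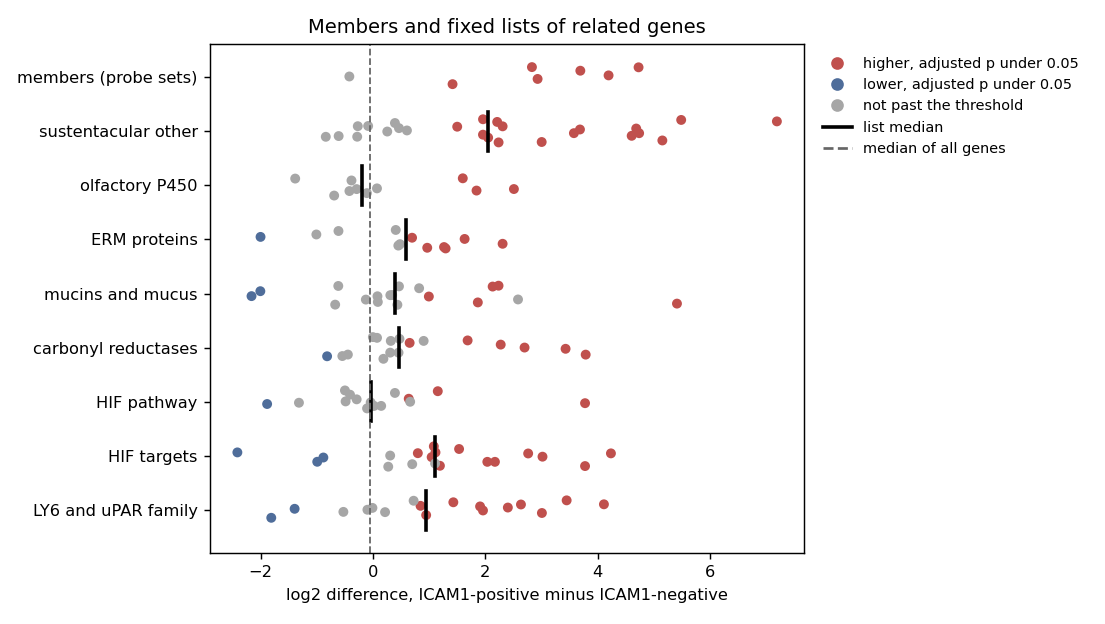
Log2 difference, ICAM1-positive minus ICAM1-negative, of the 7 probe sets (top) and of the genes of 8 fixed lists, with red for higher, blue for lower and grey for genes that did not pass the threshold. Black bars are list medians, between -0.20 for the P450 list and 2.05 for the other sustentacular genes, and the dashed line is the median of all genes at -0.06.

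Markers of further cell types were read in the same arrays. Among all genes tested, 20.6% were higher in ICAM1-positive cells and 20.8% lower. Of 10 tested Bowman gland genes 5 were higher and 0 lower (the same numbers at an unadjusted limma p under 0.05), with summed intensities of 37364 to 42023 in ICAM1-positive and 12762 to 19704 in ICAM1-negative cells. With litter as a block 1 was lower, Obp2a (-2.23, adjusted p = 0.0473, and 0.198 without the block). Dmbt1 and Tmem100 lay below the array median on all 6 arrays. The 2 brightest were the secreted protein gene Bpifa1 (1.17 ± 0.24) and the water channel gene Aqp5 (4.22 ± 0.35). Without Bpifa1 the other 9 genes summed to 9059 to 10140 in ICAM1-positive and 1211.5 to 1657 in ICAM1-negative cells. Bpifa1 lost its call without litter 1 (adjusted p = 0.119) or 2 (0.0828). Of 8 tested genes of respiratory secretory cells 2 were higher and 0 lower (the same at an unadjusted p, but 0 higher without litter 2 or 3), with sums of 4833 to 7250 in ICAM1-positive and 2308 to 4522 in ICAM1-negative cells. The brightest, Reg3g, an antimicrobial lectin gene, differed by 2.05 ± 0.41 (adjusted p = 0.0118, and 0.0693 without litter 2 or 0.0664 without litter 3), and Ltf, the lactoferrin gene, did not pass (-0.63 ± 0.28, adjusted p = 0.133). Reg3g carried the excess of the sum, since the other 7 genes summed to 1306 to 2317 in ICAM1-positive and 1744 to 3079 in ICAM1-negative cells. Reg3g also stands on the sustentacular list outside the P450 family, where it is counted among the genes that were higher. Of 9 tested genes of ensheathing glia 3 were higher (1 without litter 3) and 1 was lower, with sums of 4052 to 4496 in ICAM1-positive and 1006 to 1198 in ICAM1-negative cells. Without Sostdc1, the brightest, the other 8 genes summed to 1768 to 2078 in ICAM1-positive and 976.0 to 1166 in ICAM1-negative cells. The median log2 difference of the glia list was -0.11, and S100b, Foxd3 and Frzb lay below the array median on all 6 arrays. Of 11 tested genes of tuft and microvillar cells 0 were higher and 6 lower (0 and 7 at an unadjusted limma p under 0.05), and with litter as a block 2 were lower. The count of lower genes was also 2 without litter 1, without litter 2 and without any single array of either litter. Gland cells transcribe mucus and detoxification genes as well, and their part in the results on the 5 genes was not tested.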

How the data were processed

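Gene expression was measured on Affymetrix mouse arrays from RNA amplified in 2 rounds, per the labels' protocols. The deposited values were linear intensities; per the submitters' processing notes the authors used GCRMA, but the values are not on its log2 scale, and each array had a trimmed mean of 500.0 (2% of probe sets dropped per tail). The program that made them is not given in the sources used here. The number of arrays limits the precision.

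Groups came from sample titles. After log2 transformation, 64 control probe sets were left out and probe sets above 4 (intensity 16) on at least 3 of 6 arrays were kept (38694). The platform table listed 1 gene for 34945 probe sets, several for 932 and none for 9160. A gene was represented by its kept probe set with the highest mean. The test was limma's (version 3.58.1 in R 4.3.3, two-sided, by lmFit and eBayes), which was tested on simulated data. Replicate numbers mark litters, per the series' design text; deviations of same-litter arrays from their group means correlated at 0.13, 0.20 and 0.08. The main fit had no litter term, and a litter block was an alternative. Folds of "at least" raise values to the array median where the dimmer sort lay below it on all 3 arrays. Some genes stand on more than 1 of the 17 lists. Members and lists were chosen with earlier results of these data known. The text names all member probe sets, the 3 nearest profiles, and per related list the 3 largest rises, 3 largest falls and 2 brightest genes not called; of cell type lists it names the 2 brightest in part. Upstream sequences are RefSeq's, build GRCm38.p6.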

Additional observations from a re-analysis of the deposited data

How the results depend on the processing

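The alternatives were the litter block, no or a stricter filter, quantile normalization, array medians subtracted, 16 added before log2, low intensities raised, an intensity trend, probe sets averaged for the lists, and leaving out each litter or array. Both probe sets of Ermn and of Epas1 kept direction and call under all 17 alternatives run on them. The replicate block ended no call of a member and lowered Lypd2's margin (4.19, adjusted p = 0.0489); among named genes it ended those of Amz1 (3.41, adjusted p = 0.0581), Ascl3 (-1.96, 0.0820), Hepacam2 (-2.11, 0.0896) and Ugt8a (-1.05, 0.0623). It moved the count of lower ERM genes to 2, as it did for carbonyl reductases, and that of tuft and microvillar genes to 2 of 6. The count of lower genes became 1 for the Bowman gland list and 1 for the oligodendrocyte list. With single litters or arrays left out, log2 differences ranged from 1.13 to 1.70 for Cbr2, 2.77 to 4.98 for Lypd2 and -0.83 to 0.10 for Muc2. Probe sets higher then ranged from 3764 to 5854 and lower from 3678 to 6013, and distinct list genes lower from 17 to 23. Signs turned in such fits for genes that had not passed: AU021092 ranged from -0.80 to 0.046, Cyp2g1 from -0.65 to 0.10, Egln2 from -0.10 to 0.075, Fcamr from -0.70 to 0.11, Gpihbp1 from -0.15 to 0.17, Sec14l3 from -0.50 to 0.11 and Tff1 from -0.11 to 0.24. Genes lower ranged from 0 to 3 among carbonyl reductases and were 1 of the LY6 and uPAR list without any 1 litter. With low intensities raised, Kdr (-0.000814) and Spdef (-0.000814) turned, since all their values became the array median. The cause of the other changes was not tested. Intensities below the array median carry no detection call, which limits the sizes given for Lypd2 and for the dimmer Epas1 probe set.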
